A study of Homo sapiens with 30 samples.

Results

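Major histocompatibility complex (MHC) class I antigen presentation was examined through 9 genes, HLA-B, HLA-C, HLA-E, HLA-F, B2M, TAP1, TAP2, TAPBP and NLRC5, which were chosen by name and placed by their RefSeq positions in GRCh38. Every peak that lay inside one of these genes or within 2 kb of it was taken: 11 out of 21268 for H3K4me3 and 16 out of 63580 for H3K27ac. All 27 passed the filter on low counts. An H3K4me3 peak was found at 9 of the 9 genes and an H3K27ac peak at 8, HLA-F being the gene without one. At 500 nM of the inhibitor JIB-04, H3K4me3 was higher than in DMSO at HLA-F, HLA-B and NLRC5, lower at both TAPBP peaks, and not called as changed at HLA-C, HLA-E, B2M, TAP1 or TAP2. The NLRC5 peak also lies over LOC124903696. The TAPBP peak at the far end of the gene covers the start of RGL2, and the call at the TAPBP start was lost in some alternative settings. With another scaling between libraries the TAPBP start was not called and B2M was. H3K27ac was called as changed at none of the 16 peaks. Only 0.923% of all tested H3K27ac peaks were called for 500 nM against DMSO, so this is no result about the genes.

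The cells were OCI-Ly1, an established line of human diffuse large B-cell lymphoma, a tumour of germinal centre or activated B cells. They received JIB-04, which blocks Jumonji histone demethylases, at 150 nM or 500 nM, or 0.01% DMSO, the solvent, and the time of exposure is not given in the sources used here. Chromatin immunoprecipitation followed by sequencing (ChIP-seq) of H3K4me3, a mark of active promoters, and of H3K27ac, a mark of active promoters and enhancers, gave 2 libraries for each of the 3 groups and each mark. The other 18 libraries of the series, input, H3K9me2 and H3K9me3, were not analysed here. All groups are the same line, and nothing in the labels says that replicates were separate cultures, so p-values measure the spread between these libraries, which may be technical.

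MHC class I molecules display peptides from inside the cell to CD8 T cells. The proteasome cuts proteins, the TAP1 and TAP2 proteins together pump the peptides into the endoplasmic reticulum, and tapasin, the product of TAPBP, holds an empty class I molecule beside that pump while a peptide is loaded. A class I molecule is a heavy chain, encoded by HLA-B, HLA-C, HLA-E or HLA-F among others, joined to beta-2 microglobulin, encoded by B2M. NLRC5 is the class I transactivator, a factor that works at the promoters of these genes together with RFX, CREB and NF-Y proteins, and loss of class I display is known in B-cell lymphoma.

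Promoter sequences from RefSeq (GRCh38.p14) were matched for 7 of the 9 genes, in 8 windows, because TAP1 has a pair of starts. HLA-E and NLRC5 were not among them. The 250 bases before the start are shown for the genes whose H3K4me3 differed where a window was matched (HLA-B, HLA-F and TAPBP), for HLA-C as the closest relative of HLA-B, and for TAP1 as the gene with the highest H3K4me3 per kb, each 5′ to 3′ on the gene's own strand. Capitals mark matches, on either strand, to CCAAT (the motif of NF-Y), to GAANNGAAA or its longer form with GAAA before NN (cores of interferon response elements) and to the kB consensus (the motif of NF-kB). The windows are HLA-B at chr6:31357180-31357429 on the minus strand, HLA-C at chr6:31272093-31272342 on the minus strand, HLA-F at chr6:29723184-29723433 on the plus strand, TAP1 at chr6:32853705-32853954 on the minus strand and TAPBP at chr6:33314079-33314328 on the minus strand.
HLA-B: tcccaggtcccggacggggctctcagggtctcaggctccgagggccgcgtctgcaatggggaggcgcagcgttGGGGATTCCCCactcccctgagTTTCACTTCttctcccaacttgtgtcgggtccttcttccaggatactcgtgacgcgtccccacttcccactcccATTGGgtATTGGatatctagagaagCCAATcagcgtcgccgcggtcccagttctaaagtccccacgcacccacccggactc
HLA-C: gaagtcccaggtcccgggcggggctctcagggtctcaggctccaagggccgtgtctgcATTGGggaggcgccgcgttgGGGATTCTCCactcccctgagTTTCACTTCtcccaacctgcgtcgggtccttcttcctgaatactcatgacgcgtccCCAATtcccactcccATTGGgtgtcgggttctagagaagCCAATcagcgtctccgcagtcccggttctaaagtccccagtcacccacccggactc
HLA-F: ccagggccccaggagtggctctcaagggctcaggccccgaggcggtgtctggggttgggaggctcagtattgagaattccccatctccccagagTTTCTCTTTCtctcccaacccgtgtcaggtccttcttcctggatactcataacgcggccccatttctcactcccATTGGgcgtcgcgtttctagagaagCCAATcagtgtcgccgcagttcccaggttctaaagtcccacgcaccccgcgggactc
TAP1: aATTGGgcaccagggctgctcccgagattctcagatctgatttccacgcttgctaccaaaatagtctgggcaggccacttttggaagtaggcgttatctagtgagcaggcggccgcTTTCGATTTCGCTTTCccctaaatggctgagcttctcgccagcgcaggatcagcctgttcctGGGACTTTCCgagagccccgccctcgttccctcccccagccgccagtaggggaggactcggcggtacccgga
TAPBP: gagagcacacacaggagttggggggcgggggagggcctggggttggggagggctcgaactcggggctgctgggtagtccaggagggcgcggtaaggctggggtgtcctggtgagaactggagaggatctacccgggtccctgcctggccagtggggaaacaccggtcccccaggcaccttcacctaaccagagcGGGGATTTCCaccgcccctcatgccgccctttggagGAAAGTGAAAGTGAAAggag

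The HLA-B window was 89.0% identical to that of HLA-C and 80.4% identical to that of HLA-F, and HLA-C and HLA-F shared 78.6%, counted as identical columns of a global alignment with gaps. HLA-B had CCAAT matches that began 81, 74 and 56 bases before the start, and HLA-F had them at 82 and 57. A match to GAANNGAAA lay 155 bases before the start in HLA-B and 151 in HLA-C, and one to the longer form lay 156 bases before it in HLA-F. HLA-F was the heavy-chain gene of the 3 with no match to the kB consensus in this window. TAPBP held 2 overlapping matches to the longer form, 20 and 14 bases before its start, and a kB match at 56. Of the 7 matched genes, 7 held GAANNGAAA or its longer form in at least 1 window, beside 9.08% of 35116 windows of 250 bases over all genes. The kB consensus was present in 5 of the 7 genes, against 9.96% of all windows, and CCAAT in 5, against 32% of all windows. Also searched were TGACGTCA, in 0 genes against 1.65% of all windows, and its part TGACG, in 4, against 21.2%. The counts are per gene and the shares per window. The windows of HLA-B, HLA-C and HLA-F were 78.6% to 89.0% identical, so these genes are not independent counts. Such motif hits are matches of letters and not sites of binding. An H3K4me3 peak covered the start of all 7 genes.

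H3K4me3 counts totalled 9686420 to 12327122 per library and H3K27ac counts 4360660 to 5410292. Of the B-cell marker genes, MS4A1, CD79A, CD79B, PAX5 and BCL6 each had a peak of both marks, with mean H3K4me3 levels in DMSO from 122.2 CPM (scaled counts, defined in the next paragraph) at MS4A1 to 498.5 at PAX5, summed over the gene's peaks. Of the 4 T-cell markers (CD3D, CD3E, CD3G and CD2), 2 had an H3K4me3 peak, CD3D and CD3G, which share the same 2 peaks, with 24.1 to 29.84 CPM per library over them. Of the 4 myeloid markers 1 had an H3K4me3 peak, CD14, while LYZ, CSF1R and ITGAM had none, and of the 4 epithelial markers 3 had one, CDH1 having none. For H3K27ac, 4 of 4 T-cell, 0 of 4 myeloid and 1 of 4 epithelial markers had a peak. Mean H3K27ac in DMSO, summed in the same way, was 101.0 CPM at CD2, beside 115.3 at MS4A1. The other T-cell markers had 1.692 to 8.68 CPM. EPCAM had 70.35 CPM of H3K4me3 and 45.49 of H3K27ac in DMSO. KRT8 and KRT18 had the same low H3K4me3 value, 0.3923 CPM. The H3K4me3 libraries at 150 nM differed from each other by less than counting noise, with a chi-square of 0.919 per degree of freedom. DMSO library 1 and 150 nM library 1, which belong to different groups, gave 0.947. Both 150 nM libraries were therefore kept, and the counts of called members were the same, 5 and 0, with them summed as 1 sample. For H3K27ac, DMSO library 2 and 150 nM library 2 stood apart with 363 and 246 counts on 5 unplaced contigs against 1674 to 2173 in the other libraries.

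Levels are CPM, the counts in a peak relative to the counts in all tested peaks of the library after scaling by TMM, a factor that makes most peaks equal between libraries. More cells carrying a mark and more mark per cell cannot be told apart in such values, and a change that touched all peaks alike is not measured. Between genes, levels are compared per kb of peak. On that scale, in DMSO and among the peaks at the genes' own starts or, for HLA-E and NLRC5, their only H3K4me3 peaks, H3K4me3 was highest at the peak shared by TAP1 and PSMB9 (56.7 CPM per kb, above 98.5% of the tested peaks), followed by the peaks at the TAPBP start (45.6), B2M (41.9), TAP2 (37.9), HLA-C (32.03), NLRC5 (28.7), HLA-E (18.3), HLA-B (12.2) and HLA-F (4.97, above 25.9% of the peaks). The peaks at the RGL2 start (36.0) and the PSMB8 start (32.8) lay between those of TAP2 and HLA-C. Neighbours in this order rest on 2 libraries each and were not tested against each other.

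**Figure D1:**
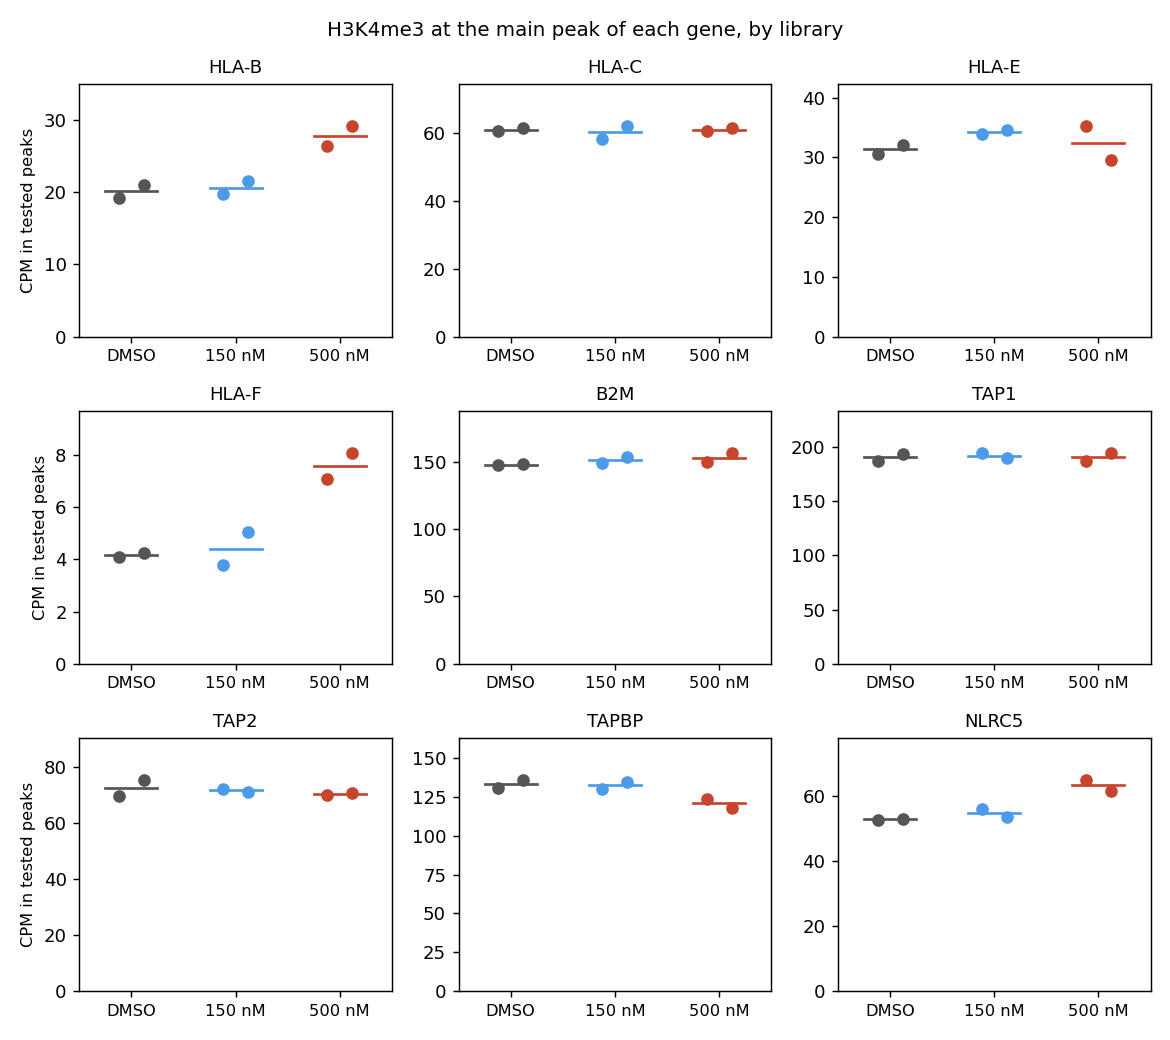
Level of H3K4me3 in CPM (vertical axes) in each of the 6 libraries, by treatment group, at the main peak of each gene, with 1 panel per gene; points are libraries and bars are group means. At HLA-F the 500 nM libraries sit at 7.06 and 8.07 CPM, above all 4 others, and at HLA-C the 3 groups overlap.

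The first comparison asks how 500 nM of the inhibitor changed H3K4me3 at these genes against the solvent. Of the 11 peaks, 5 passed an adjusted p of 0.05 with edgeR's quasi-likelihood test, 3 higher and 2 lower, in 4 of the 9 genes. Over all 20402 tested peaks 39.4% passed, 20.7% higher and 18.7% lower, so the members' share lay near that of all peaks and is no result about the group. Scaling by total counts left the members' calls at 5 but moved the split of all called peaks from 4215 higher and 3819 lower to 4767 and 2791. The median log2 fold change was 0.00080 over the member peaks and -0.0063 over all peaks. The named genes went in both directions.

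Among the heavy-chain genes, the HLA-F peak (chr6:29723268-29724102, covering the gene's start), a gene of the non-classical class I group, gave 4.08 and 4.22 CPM in the DMSO libraries, 3.76 and 5.03 with 150 nM, and 7.06 and 8.07 with 500 nM. Both 500 nM libraries were above the other 4. The mean was 4.15 ± 0.0996 CPM in DMSO and 7.56 ± 0.715 at 500 nM (SD, n = 2 each), a 1.81-fold rise. The log2 fold change was 0.86 (SE 0.20, edgeR adjusted p = 0.000349). HLA-F is a low peak, in the second of 5 equal groups of peaks by abundance, and there the median log2 fold change was 0.20 and 82.3% of peaks had a lower value than HLA-F.

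HLA-B, a classical gene that presents peptides to T cells, had its peak at chr6:31355908-31357554, over the start. It gave 19.3 and 21.0 CPM in the DMSO libraries, 19.8 and 21.5 with 150 nM, and 26.4 and 29.2 with 500 nM, with the 500 nM libraries above the other 4. The mean rose from 20.2 ± 1.24 to 27.8 ± 2.02 CPM (SD, n = 2 each), a log2 fold change of 0.46 (SE 0.0901, edgeR adjusted p = 2.94e-05), or 1.38-fold. In its abundance group, the third, the median was 0.0167 and 88.3% of peaks had a lower value.

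HLA-C, the classical gene whose promoter is closest to that of HLA-B, had its peak at chr6:31270851-31272756 and gave 60.6 and 61.5 CPM in the DMSO libraries, 58.4 and 62.2 with 150 nM, and 60.6 and 61.4 with 500 nM. The groups overlapped, and the log2 fold change was -0.00082 (95% interval -0.11 to 0.10, edgeR adjusted p = 0.992). HLA-E, a non-classical gene whose product is read by natural killer cells, had its peak at chr6:30489280-30490990 and gave 30.6 and 32.1, 33.9 and 34.6, and 35.3 and 29.5 CPM in the same order of groups. The 500 nM libraries lay on both sides of the DMSO ones, with a log2 fold change of 0.06 (95% interval -0.09 to 0.21, adjusted p = 0.557). The HLA genes are near-identical in places, and how reads that match several of them were placed is not given in the sources used here, so the values of single HLA genes are uncertain to that extent.

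The ratio of counts in 2 peaks of the same library does not depend on the scaling, and it was taken against HLA-C, a choice made after its values were seen. The HLA-B to HLA-C ratio was 0.318 and 0.342 in the DMSO libraries, 0.339 and 0.346 with 150 nM, and 0.435 and 0.476 with 500 nM. The HLA-F to HLA-C ratio was 0.0674 and 0.0687, 0.0644 and 0.0808, and 0.116 and 0.131. For both genes the 500 nM ratios were above those of the other 4 libraries. An exact permutation test of 2 libraries against 2, two-sided, gave p = 0.333 for 500 nM against DMSO for both, the smallest value that this design allows. The same test gave 0.333 for the ratios of NLRC5 and of B2M, which was not called, while that of HLA-E did not reach it. HLA-B and HLA-F had already been seen to separate by group, so this test adds no support to their calls.

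B2M, which encodes the light chain shared by all class I molecules, had an H3K4me3 peak at chr15:44710234-44713763 that also covers a start of PATL2. It gave 147.6 and 148.1 CPM in the DMSO libraries, 149.4 and 153.5 with 150 nM, and 149.6 and 156.6 with 500 nM. The 500 nM libraries were both above DMSO, by a log2 fold change of 0.05 (95% interval -0.02 to 0.12, edgeR adjusted p = 0.303). With loess offsets on abundance in place of TMM, the value was 0.115 and the peak was called, at an adjusted p of 0.00566.

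The transporter genes gave no call. TAP1 and TAP2 lie close together on chromosome 6, with PSMB8 between them and PSMB9 on the other side of TAP1, both of which encode subunits of the immunoproteasome. The peak at chr6:32852174-32855531 covers the starts of TAP1 and PSMB9 and gave 187.5 and 193.4 CPM in the DMSO libraries, 194.6 and 189.8 with 150 nM, and 186.9 and 194.3 with 500 nM. Its groups overlapped and its log2 fold change was 0.00080 (95% interval -0.07 to 0.07, adjusted p = 0.988). The second TAP1 peak, chr6:32842982-32845916, covers the PSMB8 start and the far end of TAP1, with a log2 fold change of -0.02 (adjusted p = 0.731). TAP2, at chr6:32837050-32838968, gave 69.9 and 75.4 CPM in the DMSO libraries, 72.2 and 71.3 with 150 nM, and 70.0 and 71.0 with 500 nM, with overlapping groups and a log2 fold change of -0.04 (95% interval -0.14 to 0.06, adjusted p = 0.564).

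**Figure D2:**
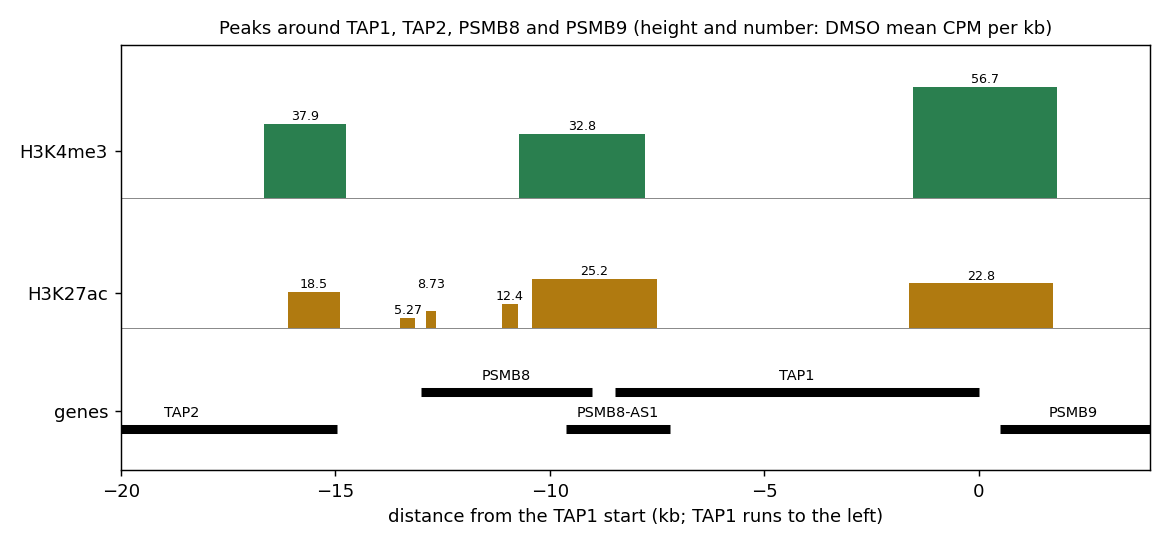
Peaks of H3K4me3 and H3K27ac around TAP1, TAP2, PSMB8 and PSMB9, by distance from the TAP1 start in kb (horizontal axis), with the height of each box and the number on it giving the DMSO mean in CPM per kb. The H3K4me3 peak at the shared TAP1 and PSMB9 start has 56.7 CPM per kb and the one at the TAP2 start 37.9.

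TAPBP, which encodes tapasin, fell at both of its peaks. The peak at its start, chr6:33312084-33315009, also lies over ZBTB22 and gave 130.9 and 135.9 CPM in the DMSO libraries, 130.5 and 134.6 with 150 nM, and 123.9 and 118.1 with 500 nM. The 500 nM libraries were below the other 4, with a log2 fold change of -0.14 (SE 0.0388, edgeR adjusted p = 0.00372). Without 500 nM library 2 the value was -0.11 with an adjusted p of 0.0567. With loess offsets the value was -0.07 with an adjusted p of 0.138, and with DESeq2 the adjusted p was 0.138, so this call was lost in those 3 settings. In its abundance group, the fifth, the median was -0.06 and 19.3% of peaks had a lower value. The other peak, chr6:33297514-33300362, lies at the far end of TAPBP and covers the start of RGL2, so its signal may belong to RGL2. It gave 105.3 and 100.0 CPM in the DMSO libraries, 98.0 and 95.3 with 150 nM, and 85.3 and 90.0 with 500 nM. Its log2 fold change was -0.23 (SE 0.044, adjusted p = 1.6e-05), with the 500 nM libraries below the other 4, and 6.03% of peaks in the same abundance group had a lower value.

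NLRC5, the transactivator, had its H3K4me3 peak at chr16:56988901-56990740, over the lower-coordinate end of the gene and over LOC124903696. No start was matched for NLRC5, so the peak was not assigned to a start, and its signal may belong to either gene. The peak gave 52.7 and 53.0 CPM in the DMSO libraries, 56.1 and 53.6 with 150 nM, and 65.0 and 61.7 with 500 nM, and the 500 nM libraries were above the other 4. The mean rose from 52.9 ± 0.264 to 63.3 ± 2.31 CPM (SD, n = 2 each), or 1.2-fold, with a log2 fold change of 0.26 (SE 0.0544, edgeR adjusted p = 7.25e-05). In its abundance group, the fourth, the median was -0.04 and 97.2% of peaks had a lower value. Counted against HLA-C in the same library, NLRC5 gave 0.869 and 0.863 in the DMSO libraries, 0.96 and 0.862 with 150 nM, and 1.07 and 1.0 with 500 nM.

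**Figure D3:**
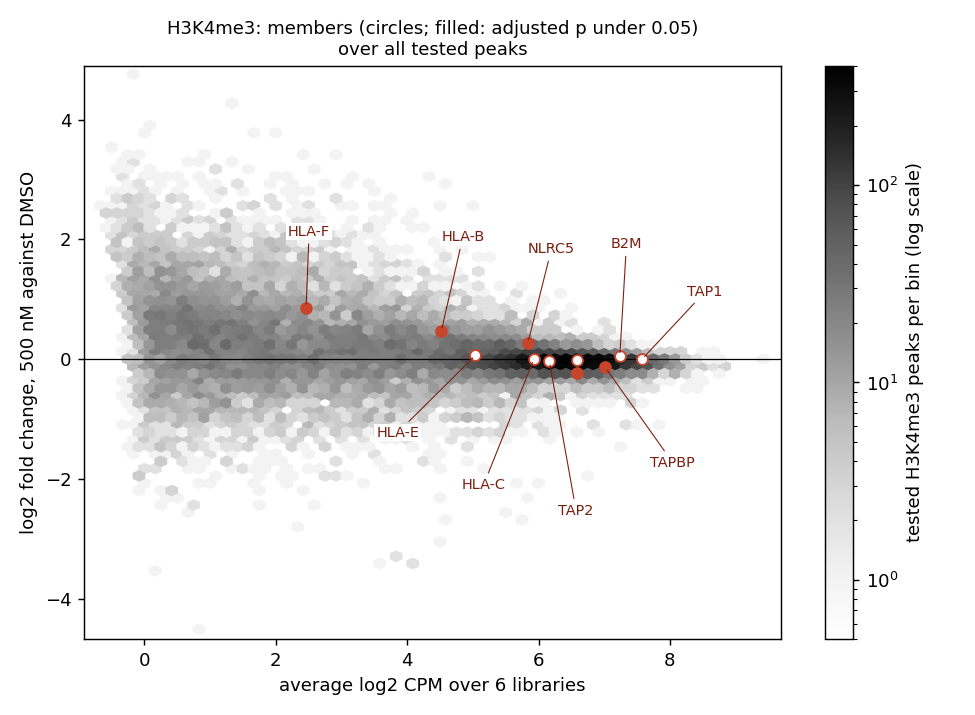
Log2 fold change of H3K4me3 at 500 nM against DMSO (vertical axis) by average log2 CPM over 6 libraries (horizontal axis), with shading for all 20402 tested peaks and circles for the 11 member peaks, filled where the adjusted p was under 0.05. HLA-F, HLA-B and NLRC5 lie above 0 and both TAPBP peaks below it.

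At 150 nM against the same DMSO libraries, 0 of the 11 H3K4me3 peaks passed with edgeR, where 0% of all tested peaks passed. DESeq2 also called 0, and 1 of the 11 had an unadjusted p under 0.05, the TAPBP peak at the RGL2 start (log2 fold change -0.09, edgeR unadjusted p = 0.0418). The fold changes ran from -0.09 to 0.13, the highest being that of HLA-E. HLA-F had 0.08 (95% interval -0.36 to 0.52), HLA-B 0.04 (-0.15 to 0.23) and NLRC5 0.05 (-0.06 to 0.17). Both 150 nM libraries lay above both DMSO libraries at 3 peaks and below both at 1, beside 17.2% and 16.8% of all tested peaks. For 500 nM against DMSO these counts were 4 and 3, beside 33.7% and 34.3%.

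The doses were also compared with each other, on the same 500 nM libraries. Of the 11 peaks 5 passed, 3 higher and 2 lower at 500 nM, and they were the same 5 peaks as against DMSO, a comparison that shares those libraries. Of all tested peaks 39.2% passed, 20.5% higher and 18.6% lower. Both 500 nM libraries lay above both 150 nM libraries at 3 of the 11 peaks and below both at 4, beside 34.4% and 34.4% of all tested peaks. HLA-F was higher at 500 nM by 0.78 on the log2 scale (SE 0.196, edgeR adjusted p = 0.00107), HLA-B by 0.42 (SE 0.09, adjusted p = 0.000119) and NLRC5 by 0.21 (SE 0.0542, adjusted p = 0.0014). TAPBP had -0.13 at its start (adjusted p = 0.00655) and -0.145 at the RGL2 start (adjusted p = 0.00764). Total-count scaling moved the split of all called peaks from 4190 higher and 3798 lower to 4695 and 2921. The HLA-B call held when each library was left out, whereas others did not. HLA-F had an adjusted p of 0.0539 without 150 nM library 1 and NLRC5 of 0.0653 without 500 nM library 1. The TAPBP start peak had 0.106 without 150 nM library 2 and 0.0811 without 500 nM library 2, and the peak at the RGL2 start had 0.0961 without 150 nM library 1 and 0.159 without 500 nM library 1. DESeq2 called 1 of the 11 peaks in this comparison, HLA-B. The share of all tested peaks that DESeq2 called is not given here, so this count is no result about the members.

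**Figure D4:**
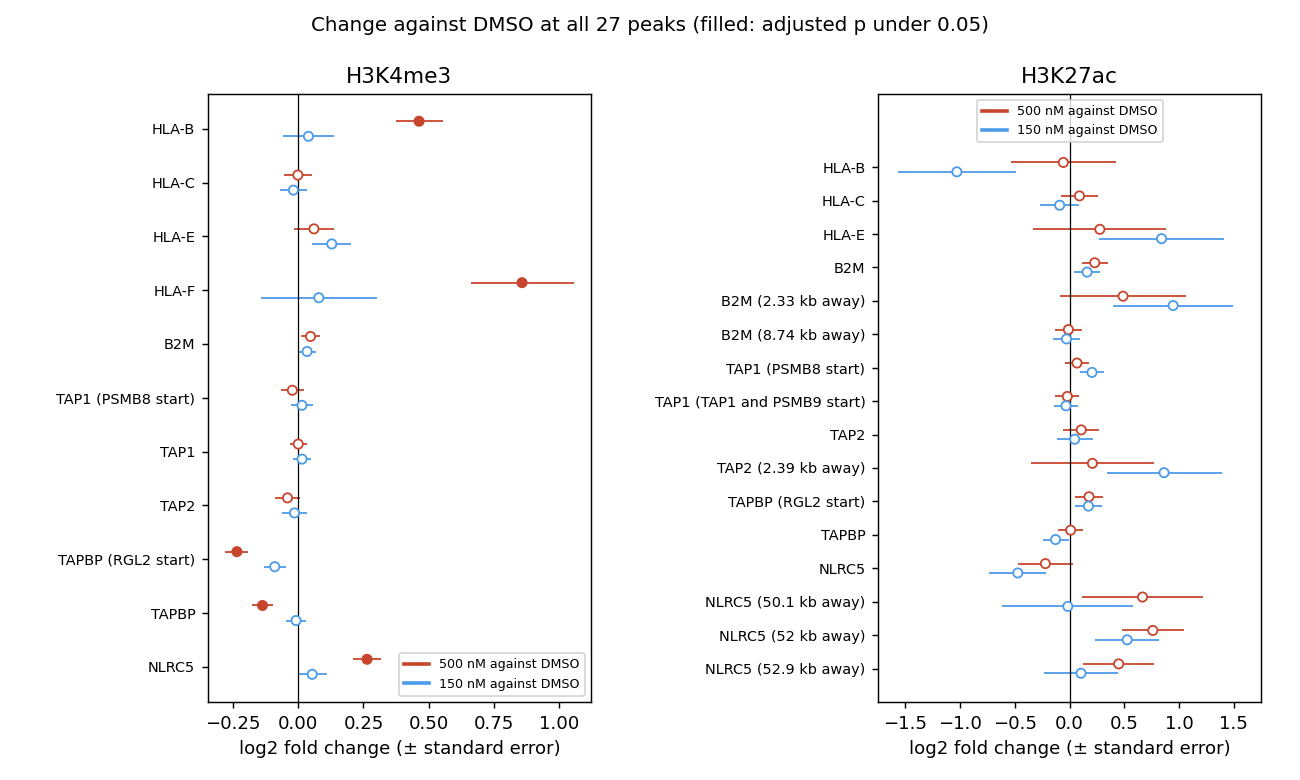
Log2 fold change against DMSO with its standard error (horizontal axis) for all 27 member peaks of both marks, at 150 nM and 500 nM, with filled symbols where the adjusted p was under 0.05. Filled symbols appear for H3K4me3 at 500 nM at HLA-B, HLA-F, NLRC5 and both TAPBP peaks, and none appear for H3K27ac.

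H3K27ac at these genes gave no call in any comparison. Of the 16 peaks, 0 passed for 500 nM against DMSO, beside 0.923% of 54037 tested peaks (0.692% higher and 0.231% lower), and 1 had an unadjusted p under 0.05. At 150 nM 0 passed and 0 had an unadjusted p under 0.05, where 0.00185% of all peaks passed. Between the doses 0 passed, beside 1.27% of all peaks (1.09% higher and 0.185% lower), with 0 at an unadjusted p under 0.05. DESeq2 called 0 in each of the 3 comparisons. With edgeR shares that low among all peaks, 0 of 16 is no result about the members. The median log2 fold change at 500 nM was 0.14 over the 16 peaks and -0.0040 over all tested peaks, and 12 of the 16 were positive and 4 negative, beside 49.5% of all tested peaks positive. This lean was not tested, and the peaks are not independent, as NLRC5 has 4 of them and B2M 3. Some positive values rest on few counts, such as 0.67 at an NLRC5 peak (5 to 21 per library) and 0.49 at a B2M peak (6 to 17). Both 500 nM libraries exceeded both DMSO libraries at 6 peaks and lay below both at 0, beside 22.4% and 22.2% of all peaks. For 150 nM against DMSO these counts were 5 and 2, beside 14.9% and 15.6%, and for 500 nM against 150 nM 3 and 2, beside 19.3% and 19.3%. Neither HLA-B nor HLA-F, the heavy-chain genes whose H3K4me3 rose, had an H3K27ac peak over its start: HLA-F had none at all, and that of HLA-B was a 271 bp peak inside the gene with 6 to 17 counts per library.

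**Figure D5:**
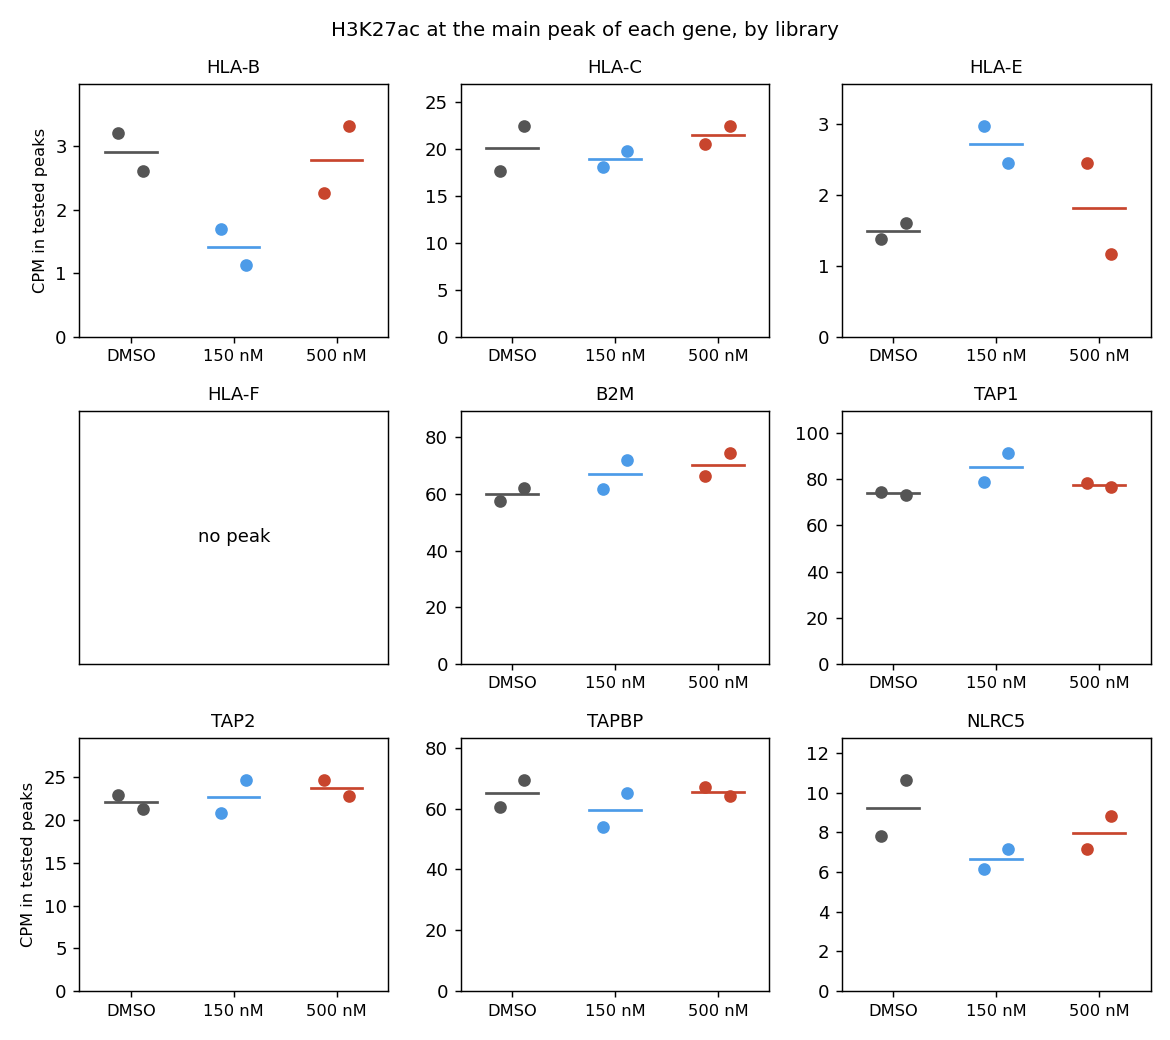
Level of H3K27ac in CPM (vertical axes) in each of the 6 libraries, by treatment group, at the main peak of each gene that has one; points are libraries and bars are group means. At B2M the 500 nM libraries (66.3 and 74.5 CPM) lie above the DMSO libraries (57.7 and 62.2), and the 150 nM libraries (61.6 and 72.2) overlap both groups.

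The B2M start peak (chr15:44710119-44712871) gave 57.7 and 62.2 CPM in the DMSO libraries, 61.6 and 72.2 with 150 nM, and 66.3 and 74.5 with 500 nM. The DMSO and 500 nM libraries did not overlap, but the log2 fold change of 0.23 (95% interval -0.004 to 0.46) had an adjusted p of 0.446. HLA-C (chr6:31271501-31272643) gave 17.7 and 22.5, 18.1 and 19.8, and 20.5 and 22.5 CPM, with overlapping groups and a log2 fold change of 0.09. HLA-E had 6 to 14 counts per library, and its log2 fold change of 0.28 had a 95% interval of -0.94 to 1.5. The other B2M peaks were a 253 bp peak inside the gene with 6 to 17 counts per library and a 4079 bp peak 555 bp beyond the gene, which gave 50.9 to 57.7 CPM in all 6 libraries and a log2 fold change of -0.01.

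The TAP1 peak with the most counts (chr6:32843284-32846218, over the PSMB8 start) gave 74.7 and 73.2 CPM in the DMSO libraries, 78.8 and 91.4 with 150 nM, and 78.6 and 76.5 with 500 nM, a log2 fold change of 0.07. The 150 nM library 2 was the highest, and it is one of the libraries that stood apart. At the shared TAP1 and PSMB9 start the 6 libraries ran from 68.0 to 81.8 CPM and the value was -0.02. TAP2 (chr6:32837611-32838805) gave 20.8 to 24.7 CPM over all 6 libraries with overlapping groups and a log2 fold change of 0.11, and its other peak, 1483 bp outside the gene, had 8 to 24 counts per library. TAPBP gave 60.7 and 69.4 CPM in DMSO and 67.1 and 64.1 at 500 nM at its start, a log2 fold change of 0.01 (95% interval -0.23 to 0.25), at a peak where H3K4me3 fell. At the RGL2 start the H3K27ac value was 0.18 (95% interval -0.07 to 0.43), where H3K4me3 also fell.

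NLRC5 had 4 H3K27ac peaks. The one under its H3K4me3 peak (chr16:56989151-56990017), which also lies over LOC124903696, gave 7.82 and 10.6 CPM in the DMSO libraries, 6.16 and 7.16 with 150 nM, and 7.16 and 8.80 with 500 nM, with overlapping groups and a log2 fold change of -0.22 (95% interval -0.72 to 0.28). The other 3 lay 50.1, 52.0 and 52.9 kb away, inside the gene, with 0.67, 0.76 and 0.45. The one at 52.0 kb (chr16:57041342-57042228) gave 6.44 and 4.61 CPM in the DMSO libraries, 8.50 and 7.35 with 150 nM, and 11.7 and 6.85 with 500 nM. Its 500 nM libraries were above DMSO but differed from each other (edgeR unadjusted p = 0.00947, adjusted p = 0.234). With a term for the split of the libraries by contig counts, added after the data were seen, 0 of the 16 peaks were called in each comparison. The share of all peaks called with that term is not given here, so the count is no result about the members.

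Patterns across the 6 H3K4me3 libraries were compared with the mean profile of the 9 main peaks, over 11522 peaks near genes with a mean count of at least 50. The genes most alike were TTC39B (Pearson r = 0.9993), the TEAD3 and TULP1 peak (0.9981) and SH3PXD2B (0.9972), and 257 of the 11522 exceeded 0.95. The members' own correlations with that mean were 0.976 for HLA-B, 0.972 for HLA-F, 0.869 for NLRC5, 0.676 for B2M, 0.368 for HLA-C, 0.032 for HLA-E, -0.028 for TAP1, -0.285 for TAP2 and -0.77 for TAPBP, and as each member is part of the mean these are partly built in. These correlations are across libraries that share 2 per treatment and describe no group property. For H3K27ac the most alike were CNOT11 (0.9952), TMEM44 (0.9896) and LOC100132570 (0.9841), and 39 of 10066 exceeded 0.95.

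The other genes of the pathway were taken from a list of 22, the other class I genes, the peptide-trimming and chaperone genes, the immunoproteasome subunits and the transcription factors of class I promoters. Of these, 21 had an H3K4me3 peak, HLA-G being the one without, with 38 tested peaks, of which 3 are shared with TAP1 or TAP2. At 500 nM against DMSO 3 were higher and 8 lower (11 of 38 called, in 9 genes), beside 39.4% of all tested peaks called, 20.7% higher and 18.7% lower, and the median was -0.06. PSME1 encodes a proteasome activator subunit, and its peak with the most counts gave 98.8 and 102.7 CPM in DMSO and 85.4 and 86.8 at 500 nM (log2 fold change -0.23, edgeR adjusted p = 3.23e-05), at a peak within 2 kb of PSME1 and PSME2 that covers the start of EMC9. The peak over the PSME1 start itself had -0.15 (adjusted p = 0.00634). ERAP1 trims peptides in the endoplasmic reticulum, and its peak with the most counts, which covers the start of LNPEP and not that of ERAP1, gave 216.7 and 214.7 CPM against 190.8 and 181.9 (-0.21, adjusted p = 2.96e-07). The peak over the ERAP1 start gave 82.0 and 88.2 CPM against 79.1 and 82.6 (-0.07, adjusted p = 0.231) and was not called. RFX5, a subunit of the RFX complex, gave 56.3 and 53.1 CPM against 64.5 and 63.6 (0.22, adjusted p = 0.000562). At the 3 called main peaks the DMSO and 500 nM groups did not overlap. Of all tested peaks, 33.7% had both 500 nM libraries above both DMSO ones and 34.3% below. The 3 peaks were picked by their change, so this lack of overlap adds no support. Between the doses 12 of the 38 were called, 2 higher and 10 lower, beside 39.2% of all tested peaks, 20.5% higher and 18.6% lower. For H3K27ac 0 of 107 tested peaks were called against DMSO at either dose or between the doses. Of all H3K27ac peaks 0.923% were called for 500 nM against DMSO, 0.00185% for 150 nM and 1.27% between the doses. With shares that low, the 0 of 107 is no result about these genes.

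The MHC class II genes, which present peptides from outside the cell and are controlled by CIITA, had 7 of 13 genes with an H3K4me3 peak and 9 tested peaks. HLA-DRA, HLA-DRB1, HLA-DRB5, HLA-DQA1, HLA-DPA1 and HLA-DPB1 had no peak of either mark. How reads that match several HLA genes were placed is not given, so a missing peak need not mean a missing mark. At 500 nM against DMSO 3 of the 9 were called, all lower, beside 39.4% of all tested peaks called and 18.7% called lower, so the count is no result about the class II genes. HLA-DMA, which encodes a chaperone of class II loading, gave 18.3 and 14.4 CPM in DMSO and 12.8 and 9.09 at 500 nM (log2 fold change -0.58, adjusted p = 0.000275). CIITA gave 187.5 and 172.0 against 165.6 and 168.3 at its main peak (-0.11, adjusted p = 0.00918). Another CIITA peak, chosen after its values were seen, gave 40.5 and 32.9 against 28.3 and 22.0 CPM (-0.54, adjusted p = 5.83e-07). For H3K27ac 0 of 25 class II peaks were called in each comparison. Of all H3K27ac peaks 0.923% were called for 500 nM against DMSO, 0.00185% for 150 nM and 1.27% between the doses. This count is also no result about the class II genes. A difference between the class I and class II genes in their H3K4me3 change was not tested.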

How the data were processed

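H3K4me3 and H3K27ac were analysed in 12 of 30 OCI-Ly1 libraries. The authors deposited 1 table per mark of read counts per consensus peak, not normalized; per the file headers, featureCounts 2.0.1 counted without strand, let a read count in several peaks and required 0.2 of it in the peak. The recorded command has the paired-read option although the labels' protocols give 50 bp single reads, so whether reads or fragments were counted is unclear. Per the submitters' processing notes, Trim Galore 0.6.7, BWA 0.7.17-r1188, Picard 2.27.4, MACS2 2.2.7.1, deepTools 3.5.1, edgeR 3.42.4 and GRCh38 were used, with no role given; how the consensus peaks were made is not given in the sources used here.

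The test was the quasi-likelihood F test of edgeR 4.0.16 (R 4.3.3), with the 6 libraries of each mark fitted together by group, filterByExpr, TMM and Benjamini-Hochberg adjustment over all tested peaks, with 0.05 as threshold. The step was also run on counts simulated from the fitted spread with few changed peaks. Far more H3K4me3 peaks were called here, so that run does not measure the error rate in these data. Intervals are 95% and reflect library spread; counts without molecular identifiers are not independent molecules. Positions are the deposited ones with 1 added to the start, and gene positions are those of GRCh38.p14 in a table without strand; exon, intron and UTR placement was not analysed here. The main peak of a gene had the most counts; the other genes named were the 3 main peaks of largest change per list among those called. The members, lists and rules were chosen with earlier results of these data known. A B-cell marker of the list is not reported here. Alternatives were other scalings (with limma 3.58.1 loess offsets), DESeq2 1.42.0, count filters (none, or a mean of at least 50), a threshold of 0.01, the 4 libraries of a contrast, other distances, the replicate block and leaving out each library. Figures were drawn with matplotlib 3.10.9.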

Additional observations from a re-analysis of the deposited data

How the results depend on the processing

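For H3K27ac, 0 member peaks were called in each comparison under every setting run, and for H3K4me3 at 150 nM against DMSO likewise. In the main setting, the H3K27ac shares over all peaks were 0.923% (500 nM against DMSO), 0.00185% (150 nM against DMSO) and 1.27% (between the doses). For H3K4me3 at 150 nM against DMSO the share was 0%. With shares that low, these counts are no result about the members. Against DMSO, 500 nM gave 5 called H3K4me3 peaks in the report, 4 to 5 when each library was left out, 4 with DESeq2 and 9 with peaks within 10 kb. Against 150 nM it gave 5, then 3 with loess offsets, 1 with DESeq2, 9 with peaks within 10 kb, and 3 to 5 when each library was left out. The cause was not tested, except that the 10 kb setting adds peaks (19 in place of 11). Those 9 of 19 stand beside 39.4% (against DMSO) and 39.2% (against 150 nM) of all tested peaks. With loess offsets, 3510 of all tested peaks were higher and 3490 lower against 150 nM, beside 4190 and 3798 with TMM. The shares of all peaks called by DESeq2 are not given here, so its counts are no result about the members. No called result changed direction; the uncalled 500 nM values near 0 at HLA-C, HLA-E, TAP1 and TAP2 took either sign between settings. With the replicate number as a block, the counts were 5, 5 and 0 for H3K4me3 (500 nM against DMSO, 500 nM against 150 nM and 150 nM against DMSO) and 0 in each H3K27ac comparison. The labels do not say that the numbers pair the libraries. Differences between library 1 and library 2 correlated between groups at 0.0047 to 0.0489 for H3K4me3 and 0.0026 to 0.133 for H3K27ac. The highest H3K27ac value was that of DMSO with 150 nM. For H3K27ac the 150 nM libraries gave a chi-square of 2.36 per degree of freedom. DMSO and 150 nM libraries of the same number gave 1.24 (library 1) and 1.59 (library 2), so a shared structure is not excluded for this mark. Depth limits the H3K27ac peaks at HLA-B and HLA-E, with 6 to 17 and 6 to 14 counts per library. Each group holds 2 libraries, so an exact test of a single value cannot go below 0.333.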
